A study of Rattus norvegicus with 6 samples.

Results

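S100a8, S100a9, S100a4, S100a10 and S100b, genes of the S100 family of small calcium-binding proteins, and Padi4, a peptidylarginine deiminase, were examined in brain capillaries of stroke-prone spontaneously hypertensive rats (SHRSP). Every probe set that the array's annotation assigned to one of these genes alone was taken, which gave 7 probe sets for 6 genes, among 8799 probe sets on the array and 4737 genes with a named probe set. S100b had 2 probe sets and each of the other genes 1. A further probe set, assigned to Padi3 and Padi4 together, was not counted. The genes were chosen by their measured values: S100a8, S100a9 and S100a4 by the difference between treated and control arrays, and Padi4 by the difference between ACEI and control. Which values led to S100a10 and S100b is not known here. The differences from control below therefore describe the genes and were not tested.

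The study profiled capillaries isolated from brains of SHRSP rats aged 6 weeks, a strain that develops severe hypertension and stroke. Control rats were compared with rats given the angiotensin-converting enzyme inhibitor (ACEI) lisinopril at 6 mg/kg/day, or the angiotensin II receptor blocker (ARB) olmesartan at 4 mg/kg/day by mouth; both drugs block the renin-angiotensin system. The labels name 1% NaCl without saying which groups received it, so it is not known whether the controls and both treated groups shared the salt. Each of the 3 groups had 2 Affymetrix RG_U34A arrays, and nothing in the labels says whether the arrays of a group came from separate animals, so p-values measure only the spread between these arrays. Capillaries are a bulk preparation in which fewer cells of a type and less RNA per cell cannot be told apart.

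S100a8 and S100a9 form the heterodimer calprotectin, which neutrophils and monocytes store in large amounts and release during inflammation, where it can signal through the receptors Tlr4 and Ager. S100a4 promotes cell motility and is found in fibroblasts and leukocytes; S100a10 partners annexin A2 (Anxa2) at the cell membrane, where the complex binds plasminogen and its activator; S100b is a glial protein of astrocytes and oligodendrocytes. Padi4 converts arginine to citrulline in histones and is needed for neutrophils to release extracellular traps.

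In the RefSeq annotation of the rat genome (build GRCr8), S100a8 and S100a9 are neighbours with 0 protein-coding genes between them, S100a4 and S100a8 are separated by 3, and S100a9 and S100a10 by 59. Padi4 lies next to Padi3. RefSeq promoter entries matched S100a9, S100a4 and S100b. The 250 bases before the start of S100a9 and S100a4 are shown because these genes had the same order of groups, control above treated, on the arrays. Capitals mark TATAAA, the letters of a TATA box, and both runs are written 5′ to 3′ on the gene's own strand. The S100a9 window lies on the minus strand at chr2:178490623-178490872 and the S100a4 window on the plus strand at chr2:178388279-178388528.
S100a9: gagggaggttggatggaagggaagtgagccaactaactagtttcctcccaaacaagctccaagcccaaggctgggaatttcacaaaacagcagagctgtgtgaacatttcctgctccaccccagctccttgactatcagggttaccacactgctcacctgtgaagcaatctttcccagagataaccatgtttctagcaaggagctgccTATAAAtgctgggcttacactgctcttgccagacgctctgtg
S100a4: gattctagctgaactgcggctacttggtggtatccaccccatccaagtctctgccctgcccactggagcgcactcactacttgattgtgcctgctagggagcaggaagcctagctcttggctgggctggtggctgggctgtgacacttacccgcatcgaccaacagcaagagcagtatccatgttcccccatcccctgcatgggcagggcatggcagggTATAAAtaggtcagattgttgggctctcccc
TATAAA began 42 bases before the S100a9 start and 31 bases before the S100a4 start, and was in neither strand of the S100b window. It occurred in 12.9% of 33469 upstream windows of this length, searched on both strands. The letters TTGCNNAA (a C/EBP site, in 9.22% of windows), TGANTCA (AP-1, 6.34%) and GGGCGG (a GC box, 30.5%) were in none of the 3 windows. The E-box letters CANNTG, in 65.5% of windows, occurred in the S100a9 window and not in that of S100a4. These are matches of letters only.

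The deposited values are intensities with 2% trimmed means between 997.7 and 1002.2 on the 6 arrays, yet the arrays differed in other ways. The median intensity was 244.9 to 353.4 across control and ACEI, against 485.7 and 493.8 under ARB, and the median of the bacterial control probe sets, which no rat RNA should light, was 18.4 to 28.8 against 91.4 and 80.9. The 10 brightest probe sets carried at most 5.64% of the signal on the control and ACEI arrays, but 11.3% and 12.2% on ARB 1 and ARB 2. Control 2 had a Gapdh 3′ to 5′ signal ratio of 7.31, a sign of shortened RNA, against 0.933 to 1.59 on the other arrays, and 34.5% of tested probe sets differed over 2-fold between the control arrays, against 17.8% between the ACEI and 15.2% between the ARB arrays. Control 1 and ACEI 1 shared a run day and a chip lot, and the other 4 arrays shared another of each. The arrays numbered 1 shared a fluidics protocol, and those numbered 2 another. The part of these features in the values below was not tested, except where a value without control 2 or within a run day is given. The only control of the later run day was control 2, the array with the high Gapdh ratio, so values within that day rest on it. Each ACEI value within a run day compares a single ACEI array with a single control array.

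S100a8 had intensities of 2686 and 2679 on the control arrays, 962.2 and 1586 under ACEI, and 395.9 and 79.6 under ARB. The 3 groups did not overlap and followed the order control, ACEI, ARB. Within each array, S100a8 stood at or above 88.6% and 88.8% of probe sets on the control arrays, 72.8% and 82.2% under ACEI, and 44.4% and 11.3% under ARB, so the order was also seen in ranks, which do not depend on an array's brightness. Its value of 79.6 on ARB 2 lay under that array's median of bacterial controls, 80.9, so the size of the ARB difference there rests on a signal near background. On the log2 scale, after adding 90 to each intensity, S100a8 differed from control by -1.06 ± 0.59 under ACEI and by -3.27 ± 0.59 under ARB (SE of the model, n = 2 arrays per group), folds of 2.09 and 9.66 lower. Adding a constant understates folds of dim probe sets. The ARB difference was -4.03 without ARB 1 and -2.40 with the median intensity as the added constant. Within the first run day the ACEI difference was -1.40, and within the later one it was -0.72 for ACEI and -3.27 for ARB.

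S100a9, the partner of S100a8 in calprotectin, had intensities of 4805 and 5310 on the control arrays, 1144 and 3158 under ACEI, and 481.8 and 792 under ARB. It repeated the order of S100a8 without overlap, but its ACEI arrays lay far apart. It stood at or above 93.4% and 93.7% of probe sets on the control arrays, 76.3% and 89.9% under ACEI, and 49.8% and 63.6% under ARB. The log2 difference from control was -1.36 ± 0.57 under ACEI and -2.86 ± 0.57 under ARB, folds of 2.57 and 7.24 lower. The ACEI value was -0.66 without ACEI 1 and -2.06 without ACEI 2. Within the first run day it was -1.99 and within the later one -0.73, where the ARB value was -2.93.

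S100a4 had intensities of 1325 and 2326 on the control arrays, 368.6 and 917.6 under ACEI, and 386.3 and 213.5 under ARB. Both treated groups lay below both controls and overlapped each other. The log2 difference from control was -1.44 ± 0.57 under ACEI and -2.28 ± 0.57 under ARB, folds of 2.72 and 4.86 lower. Within the run days the ACEI difference was -1.63 and -1.26, and the ARB difference in the later one was -2.67. The ACEI difference was -0.88 without ACEI 1.

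S100a10 had intensities of 448.5 and 548.1 on the control arrays, 242.4 and 441.9 under ACEI, and 526.4 and 121.3 under ARB. The ACEI arrays lay just below the controls, while ARB 1 lay between the controls and ARB 2 far under them. Its differences of -0.48 ± 0.60 under ACEI and -0.70 ± 0.60 under ARB were of about the size of their errors, and the ARB difference was 0.07 without ARB 2. Within the run days the ACEI difference was -0.70 and -0.26.

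Padi4 had intensities of 584.1 and 797.4 on the control arrays, 178 and 70.9 under ACEI, and 367.6 and 301.9 under ARB. Its groups did not overlap, and here the order was control, ARB, ACEI, with the ACEI arrays lowest. The log2 difference from control was -1.90 ± 0.48 under ACEI and -0.87 ± 0.48 under ARB, folds of 3.72 and 1.83 lower, and the ARB arrays lay 1.03 ± 0.48 above the ACEI arrays, which is a description too, since the ACEI arrays entered the choice of Padi4. Within the run days the ACEI difference was -1.33 and -2.46, and the ARB difference in the later one was -1.07. The gap between the drugs depended on the normalization: it was 0.39 after quantile and 0.42 after cyclic loess normalization, where ARB minus control was -1.46 and -1.47. With an added constant of 1 the ACEI difference was -2.59, and with the median intensity it was -1.12. The probe set shared by Padi3 and Padi4 read 92.1 and 94.4 on the control arrays, 95.4 and 40.3 under ACEI, and 167.5 and 107.5 under ARB, so it did not repeat the lower treated values. These values are low, and the bacterial control medians of the ARB arrays were 91.4 and 80.9, so a decrease there could hardly show. It is also named after the same sequence as the probe set of Padi3 alone.

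S100b had a bright and a dim probe set. The bright one read 3786 and 4552 on the control arrays, 7557 and 8196 under ACEI, and 3622 and 2619 under ARB. The ACEI arrays lay above and the ARB arrays below both controls, a pattern that no other gene of the set showed. The log2 difference from control was 0.91 ± 0.45 under ACEI and -0.42 ± 0.45 under ARB. Within the run days the ACEI difference was 0.98 and 0.84, and the ARB difference in the later one was -0.55; after cyclic loess normalization the ARB difference was -0.07. The dim probe set read 122.3 and 195 on the control arrays, 154.6 and 226.9 under ACEI, and 187.5 and 208.9 under ARB, and was left out of the tests by the filter on low values. Its groups overlapped, and it did not repeat the pattern of the bright one: the correlation of both over the 6 arrays was 0.08.

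**Figure D1:**
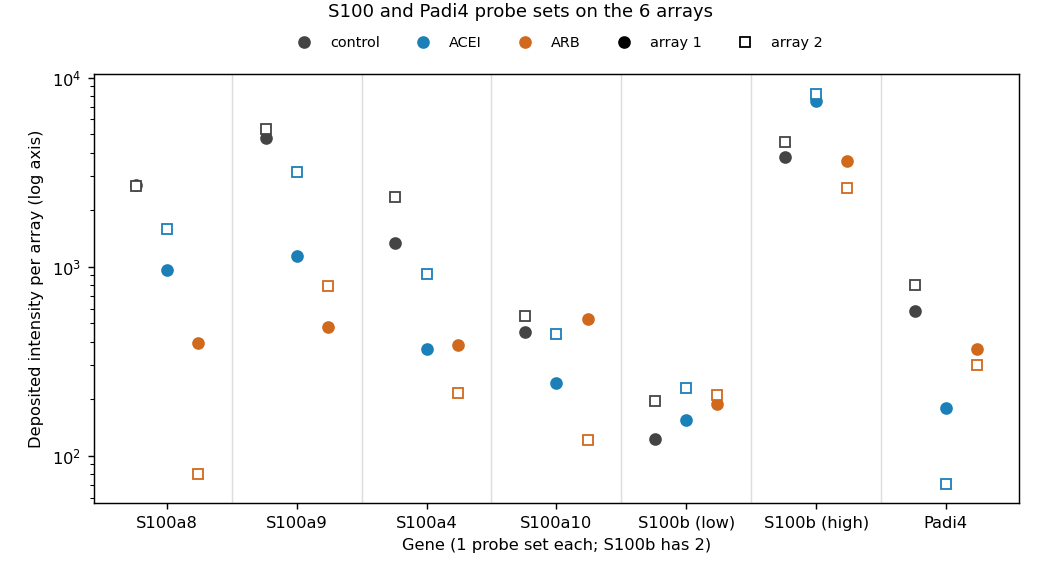
Intensity of each S100 and Padi4 probe set on each array (log axis), coloured by group; filled circles are array 1 and open squares array 2 of a group. S100a8 and S100a9 step down from control over ACEI to ARB, Padi4 is lowest on the ACEI arrays (178 and 70.9), and the bright S100b probe set is highest there (7557 and 8196).

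Of the 7 probe sets, 4 (those of S100a8, S100a9, S100a4 and Padi4) had all 4 treated arrays below both control arrays. This held for 3.72% of the 5244 probe sets tested, and since it is close to what chose these genes, nothing is read from the count. Without control 2 the count was 4, and without control 1 or without ARB 1 it was 5, the addition being S100a10. Both ACEI arrays lay below both controls for 5 of 7 (11.9% of all tested), and both ARB arrays for 5 of 7 (16.8%). For the mean of both drugs, S100a8 differed from control by -2.17 ± 0.51, S100a9 by -2.11 ± 0.50, S100a4 by -1.86 ± 0.49, Padi4 by -1.38 ± 0.42, S100a10 by -0.59 ± 0.52 and the bright S100b probe set by 0.24 ± 0.39, while the median over all probe sets tested was 0.13. Without control 2, the array with the high Gapdh ratio, these differences were -2.17 for S100a8, -2.04 for S100a9, -1.48 for S100a4, -1.19 for Padi4 and 0.37 for the bright S100b probe set. In limma with Benjamini-Hochberg adjustment, 0 of 5244 probe sets (0%) passed an adjusted p of 0.05 for both drugs together, 0 (0%) for ACEI and 0 (0%) for ARB. At an unadjusted p of 0.05, 266 probe sets were past the threshold for both drugs together, 136 for ACEI and 905 for ARB. The ACEI and ARB differences share the control arrays, so their common direction is not independent.

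The difference between the drugs does not use the control means and was tested. Its SE, interval and p-value do use the control arrays, because the main fit estimates 1 spread over all 6 arrays. ARB minus ACEI was -2.21 ± 0.59 for S100a8 (95% interval -3.56 to -0.86; limma adjusted p = 0.133 over all probe sets). It was -1.49 ± 0.57 for S100a9 (-2.80 to -0.19; limma adjusted p = 0.181) and -0.84 ± 0.57 for S100a4 (-2.14 to 0.46; limma adjusted p = 0.414). For S100a10 it was -0.22 ± 0.60 (-1.59 to 1.15; limma adjusted p = 0.857), an interval that allows a difference of over 2-fold either way. None of these passed the adjusted threshold, and 0 of 5244 probe sets (0%) did, with 1171 at an unadjusted p of 0.05. Both ARB arrays lay below both ACEI arrays for 3 of 7 probe sets, S100a8, S100a9 and the bright S100b probe set, against 25.3% of all tested. When the ACEI and ARB arrays were fitted without the controls, 305 probe sets (5.82%) passed, and S100a8 (limma adjusted p = 0.0652) and S100a9 (limma adjusted p = 0.119) still did not. The size for S100a8 was -2.97 without ARB 1 and -1.45 without ARB 2, and for S100a9 -2.19 without ACEI 1 and -0.80 without ACEI 2.

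For the bright S100b probe set, ARB minus ACEI was -1.33 ± 0.45 (95% interval -2.36 to -0.29; limma adjusted p = 0.154 over all probe sets), and the adjusted p was 0.0761 in the fit without the controls. It is not known whether S100b was picked for this difference. Both ACEI arrays above and both ARB arrays below both controls was seen for 1.51% of the probe sets tested. The dim S100b probe set differed by 0.05 ± 0.38 and was not tested.

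**Figure D2:**
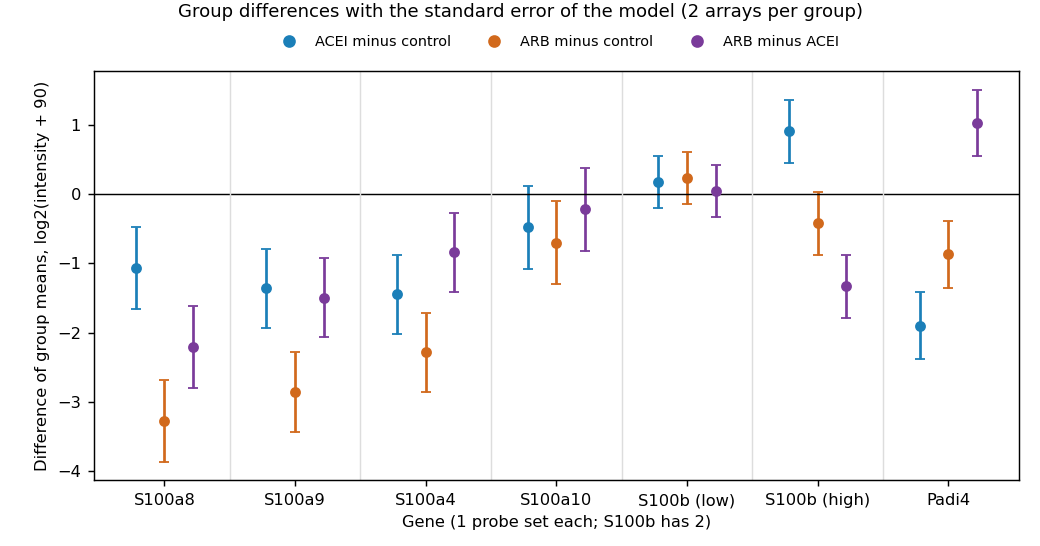
Differences of group means of log2(intensity + 90) for each probe set; points are ACEI minus control, ARB minus control and ARB minus ACEI, and bars the standard error of the model with 2 arrays per group. ARB minus ACEI is below 0 for S100a8 (-2.21), S100a9 (-1.49) and the bright S100b probe set (-1.33) and above 0 for Padi4 (1.03).

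Over the 6 arrays the log2 values of S100a8, S100a9 and S100a4 varied together, with Pearson correlations of 0.87 between S100a8 and S100a9, 0.90 between S100a8 and S100a4, and 0.92 between S100a9 and S100a4. Padi4 correlated with S100a8 at 0.23 and with S100a9 at 0.29, and with the bright S100b probe set at -0.62. The 6 arrays share their group structure, so these are descriptions with no test.

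The genes most like each member over the 6 arrays were found by the same correlation. They are the 3 highest among all tested probe sets with 1 gene symbol. With 6 arrays such a choice gives high correlations in any case, so nothing is read from their size. S100a8 was followed by Alas2, which makes haem in red cell precursors (r = 0.98), Eif4ebp1, a brake on translation (0.98), and Hagh, an enzyme of the glyoxalase pathway (0.98). Alas2 had intensities of 10011 and 9087 on the control arrays, 2941 and 4310 under ACEI, and 2247 and 679.6 under ARB, the same order of groups as S100a8. S100a9 was followed by Creg1 (r = 0.997), Nxf1, an exporter of mRNA (0.98), and Egfl7, a protein secreted by endothelium (0.98); Creg1 spanned only 768.4 to 988.3 over the 6 arrays, so a like shape did not mean a like size. S100a4 was followed by Ceacam4 (r = 0.998), Sult1a1, a sulfotransferase (0.99), and Adcy5, an adenylyl cyclase (0.97). Ceacam4 read 403.7 and 543.6 on the control arrays, 174 and 301.8 under ACEI, and 163.3 and 105.1 under ARB. S100a10 was followed by Pla2g4a, a phospholipase that frees arachidonic acid (0.96), Gpalpp1 (0.96) and Acsl4, which activates arachidonic acid (0.96). S100b was followed by Psmb9, a subunit of the immunoproteasome (0.98), Clu, the secreted chaperone clusterin (0.98), and Mtch2 (0.97). Padi4 was followed by Il1a, an inflammatory cytokine (0.98), Igf1, a growth factor (0.97), and Mgst2 (0.96); Il1a read 2650 and 2968 on the control arrays, 939.5 and 618.9 under ACEI, and 1314 and 1599 under ARB.

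The other S100 genes were hardly represented: of 11 listed, 2 had a named probe set and 1, S100a1, passed the filter, with 0.05 ± 0.43 for both drugs minus control. Of 30 receptors and partners of S100 proteins, 15 were measured and 12 tested; 8 were lower and 4 higher under the drugs, with a median of -0.45 against 0.10 over all 3186 genes tested. The median was -0.07 without control 1. None of the 12 passed the adjusted threshold in limma. At an unadjusted p of 0.05, 2 were lower, against 106 of all 5244 probe sets tested. Ager, the receptor for advanced glycation end products, was at -0.43 ± 0.43 for both drugs and at -1.01 ± 0.49 under ARB. Tlr4 was below the filter. Anxa2, the partner of S100a10, was at -0.47 ± 0.39, and its intensities of 6057 and 5974 on the control arrays, 4560 and 5947 under ACEI, and 3305 and 3820 under ARB put both ARB arrays lowest. Anxa1, an annexin that restrains leukocyte entry, was at -1.36 ± 0.41 on its brightest probe set and at -0.16 on its other one; Plaur, the urokinase receptor, at -1.11 ± 0.52; and Plat, the tissue plasminogen activator, at -1.02 ± 0.41.

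A list of 22 genes covered inducers of S100a8 and S100a9, mostly cytokines and transcription factors. It also held Nfkbia and the enzyme gene Ptgs2, which are neither. Of the 22, 17 were measured and 14 tested, with 8 lower and 6 higher under the drugs. The median of -0.07 depended on the setting: it was -0.92 with the lowest 60% of probe sets left out, -0.71 without control 2 and -0.38 with each gene's probe sets averaged. None passed the adjusted threshold in limma. At an unadjusted p of 0.05, 5 were lower, Nfkbia among them, against 106 of all 5244 probe sets tested. The chemokine gene Ccl2 was at -2.06 ± 0.73, with intensities of 894.4 and 4422 on the control arrays, 468.4 and 889.7 under ACEI, and 569 and 88.8 under ARB. The cytokine gene Il1b was at -1.98 ± 0.52, with 3427 and 9034 on the control arrays, 870.1 and 1798 under ACEI, and 1368 and 1501 under ARB. Nfkbia, the NF-kappaB inhibitor and target, was at -1.57 ± 0.47. These values are those of the brightest probe set of each gene, and the others differed: a second Ccl2 probe set was at -0.63, 2 further Il1b probe sets were at -0.93 and -2.38, and a second Nfkbia probe set was at -0.21, with 1.17 under ACEI.

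The neutrophil list was evenly divided for both drugs together. Of 41 listed genes, 18 were measured and 10 tested. For the mean of both drugs 5 were higher and 5 lower, with a median of -0.03. This median was 0.35 without control 1 and -0.36 without control 2. Under ACEI 2 were higher and 8 lower (median -0.40, against -0.07 over all genes tested). Under ARB 6 were higher and 4 lower (median 0.27, against 0.17). None passed the adjusted threshold in limma, and none an unadjusted p of 0.05, for both drugs together. The defensin gene RatNP-3b was at -1.17 ± 0.63, with 1151 on control 1 and 180.2 on control 2; the lipocalin gene Lcn2, a granule protein, was at -0.67 ± 0.39; and the chemokine receptor gene Cxcr1 was at 0.60 ± 0.63. Cxcr2, Mmp8, Mmp9 and Itgam, which code for a chemokine receptor, 2 proteases and an integrin of neutrophils, were below the filter, and Mpo, Csf3r and Itgb2 had no probe set with their name alone. The summed intensity of the 18 measured markers was 5925 to 11472 on the control arrays, 6381 to 7613 under ACEI, and 10584 to 11898 under ARB, with no marker at 0. The ARB sums thus lay within or above the range of the control sums, although S100a8 and S100a9 were lowest on the ARB arrays; the background of these arrays was the highest of the 6. ARB minus ACEI had a median of 0.86 over the 10 tested genes, against 0.19 over all genes. The other deiminases did not repeat the values of Padi4: Padi2 was at 0.09 ± 0.41 and Padi3 at 0.29 ± 0.57 for both drugs, and Padi1 was below the filter.

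S100a8, S100a9 and S100a4 are also made by monocytes, and of 29 monocyte and macrophage markers 18 were measured and 15 tested, with 12 lower and 3 higher under the drugs and a median of -0.45 that was -0.19 with no filter on low values. None passed the adjusted threshold in limma. At an unadjusted p of 0.05, 4 were lower, against 106 of all 5244 probe sets tested. Lgals3, galectin-3 of activated macrophages, was at -2.21 ± 0.38 with limma adjusted p = 0.440 and intensities of 1070 and 1153 on the control arrays, 248.9 and 263.9 under ACEI, and 84.9 and 128.4 under ARB. C1qb, a complement gene of microglia and macrophages, was at -1.30 ± 0.51 and on a second probe set at -0.53. RT1-Da, a class II antigen gene, was at -1.08 ± 0.40 and on a second probe set at 0.19, the opposite direction. The summed intensity of the 18 markers was 78443 to 85387 on the control arrays, 55296 to 88129 under ACEI, and 48645 to 50945 under ARB. Cd68 had no named probe set. Whether monocytes or macrophages were fewer was not tested.

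Other cell types of the preparation gave the following. All 5 tested of 11 red cell markers were lower for both drugs together, with a median of -0.53 that was -1.19 without control 1. Alas2 led at -2.12 ± 0.52, followed by Hbb-b1, a beta globin, at -1.29 ± 0.62. Under ACEI all 5 were lower (median -1.07), while under ARB 2 were higher and 3 lower (median -0.03). The sum was 50710 to 164157 on the control arrays, 48924 to 67933 under ACEI, and 53664 to 62656 under ARB. Of 16 tested fibroblast and mural cell markers, the cells in which S100a4 is also found, 14 were lower, with a median of -0.60 that was -1.10 without control 1 and -0.37 with each gene's probe sets averaged. The matrix gene Dcn was at -1.93 ± 0.63 on its brightest probe set, with -0.53 and 0.40 on the others that passed the filter. Timp1, an inhibitor of matrix proteases, was at -1.72 ± 0.68 and -2.66. The smooth muscle actin gene Acta2 was at -1.31 ± 0.39, with 0.05 and 0.03 on its other probe sets. The sum of the 17 measured markers was 61762 to 98848 on the control arrays, 42563 to 42941 under ACEI, and 47624 to 49755 under ARB, so no treated array reached the controls. The 7 tested lymphocyte markers were higher for both drugs together, with a median of 0.45 that was 0.05 with the lowest 60% of probe sets left out and 0.12 after quantile normalization. Under ACEI 4 were higher and 3 lower (median 0.12), and under ARB 5 were higher and 2 lower (median 0.79). Their sum was 2536 to 4229 on the control arrays, 3674 to 3727 under ACEI, and 6263 to 6513 under ARB, where background was highest. The 15 tested endothelial markers had no settled direction: 9 were higher for both drugs together, with a median of 0.34 that was -0.69 without control 2 and 1.58 without control 1. Against control 11 of them were higher under ACEI (median 0.82) and 10 lower under ARB (median -0.27), and Pecam1 was at 0.18 ± 1.02 for both drugs. No gene of these lists passed the adjusted threshold in limma, and the part of these cells in the S100 values was not tested.

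**Figure D3:**
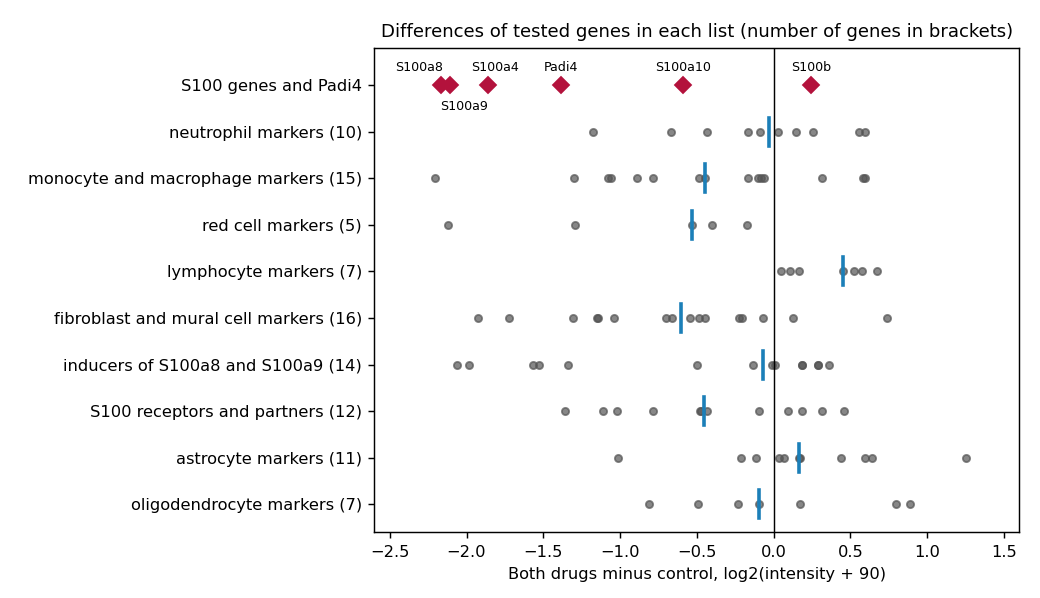
Difference between both drugs and control, log2(intensity + 90), for the tested S100 genes and Padi4 (diamonds) and for each tested gene of 9 lists (points), with the list median as a vertical bar. The neutrophil median is at -0.03, while those of monocyte (-0.45), red cell (-0.53) and fibroblast and mural cell markers (-0.60) lie below 0.

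S100b is a glial gene, so its values are set beside markers of both glial types. Of 12 oligodendrocyte markers, 8 were measured and 7 tested. All 7 were lower under ARB than under ACEI, with a median of -0.68 against 0.19 over all genes tested. The median was -1.46 with each gene's probe sets averaged. In limma 3 of the 7 were lower at an unadjusted p of 0.05, against 352 of all 5244 probe sets tested. None passed the adjusted threshold. Mbp, myelin basic protein, read 5492 and 234.3 on the control arrays, 9125 and 7593 under ACEI, and 626.1 and 668.7 under ARB, so the controls differed from each other by more than the treated groups from control 1. The sum of the 8 markers was 10510 to 16580 on the control arrays, 21814 to 22117 under ACEI, and 7699 to 8168 under ARB, the same order of groups as the bright S100b probe set. The astrocyte markers were divided: of 11 tested, 6 were higher and 5 lower under ARB than under ACEI, with a median of 0.00 that was -0.56 after quantile normalization. Among the 5 lower ones, Glul was at -2.11 ± 0.47 for ARB minus ACEI. Clu, also 1 of the genes most like the bright S100b probe set, was at -0.54 ± 0.44. Aldoc, an astrocytic aldolase, read 5188 and 2133 on the control arrays, 6322 and 14198 under ACEI, and 1529 and 1021 under ARB, as S100b did in order. A second Aldoc probe set read 3739 and 142 on the control arrays and 5208 and 6439 under ACEI. Its ARB values of 279.8 and 564.3 lay between the controls. Cst3, cystatin C, read 10820 and 41225 on the control arrays, 15636 and 16036 under ACEI, and 141237 and 181866 under ARB. Its ARB arrays were the highest, and its ACEI arrays lay between the controls. The sum of the 14 measured astrocyte markers was 97055 to 185634 on the control arrays, 115248 to 143839 under ACEI, and 262424 to 310139 under ARB. Gfap had no named probe set. The part of the amount of glia in the S100b values was not tested.

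**Figure D4:**
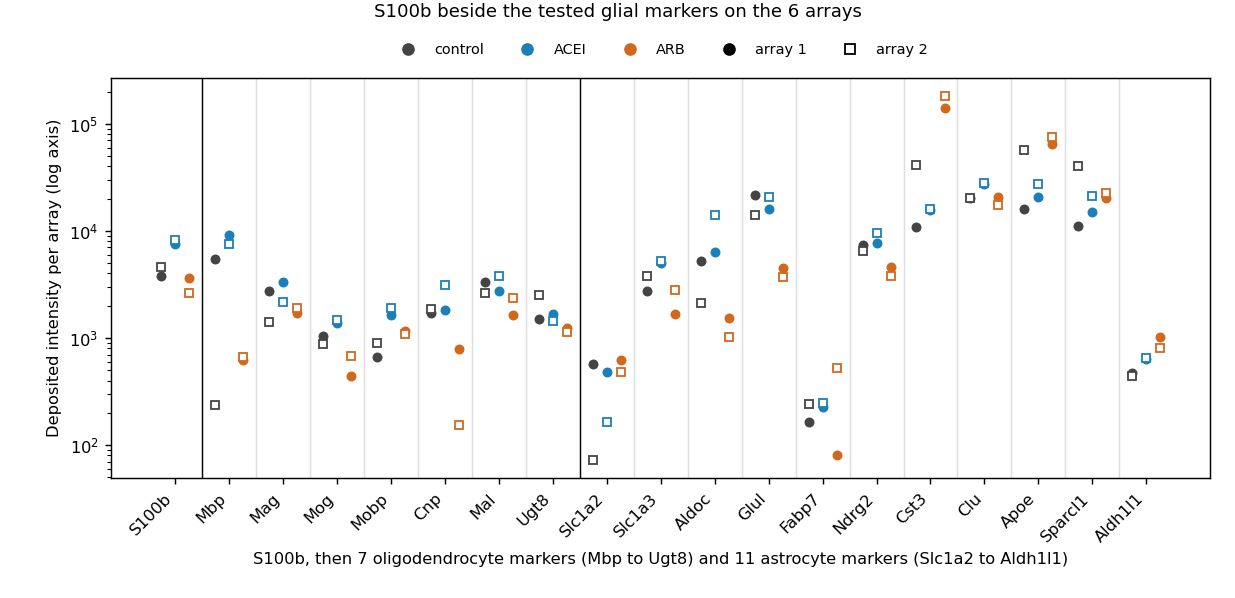
Intensity of the bright S100b probe set and of the tested oligodendrocyte and astrocyte markers on each array (log axis), coloured by group; filled circles are array 1 and open squares array 2. S100b and Mbp are highest on the ACEI arrays, while Cst3 is highest on the ARB arrays (141237 and 181866).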

How the data were processed

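Each of the 6 arrays was used as the deposited table of the authors' processed values gives it; the deposited intensities have like trimmed means on all arrays, and the authors' software and scaling are not given in the sources used here. Settings files gave run day, chip lot and fluidics protocol. Of 8799 probe sets, 7018 had 1 gene symbol, 308 several and 1473 none in the platform annotation, and probe sets with several were not used for naming. After leaving out 59 control probe sets and the 40% with the lowest mean of log2(intensity + 90), 5244 were tested in limma 3.58.1 (R 4.3.3) with 1 mean per group, two-sided moderated tests (residual degrees of freedom 3, prior 5.49) and Benjamini-Hochberg adjustment at 0.05. The added 90 was set from the median intensity of 358.3. No normalization was added. The fit was tested on simulated data. Python 3.11.15 with pandas 2.3.3 made the tables, and matplotlib 3.10.9 the figures.

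The members and lists were chosen with earlier results of these data known. A gene in a list is represented by its brightest probe set. Named are all members, up to 3 tested genes per list with the largest difference for both drugs, defining markers and receptors set in the design, and the 3 genes most correlated with each member; Padi1 and Aldoc were chosen after their values were seen. The number of arrays limits the precision.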

Additional observations from a re-analysis of the deposited data

Results flagged for a closer look

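The bright S100b probe set differed between the drugs: both ACEI arrays lay above and both ARB arrays below both controls, and ARB minus ACEI was -1.33 on the log2 scale (limma adjusted p = 0.154, with 0.0761 to 0.681 over the alternatives). The dim S100b probe set gave 0.05. With 2 arrays per group no array could be checked as standing apart from its group.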

How the results depend on the processing

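The direction of S100a8, S100a9, S100a4 and Padi4 against control was kept in each alternative run for ACEI, ARB and both drugs together (an added constant of 1 or the median, no filter, a 60% filter where they passed it, quantile and cyclic loess normalization, blocks for replicate number and run day, only the groups compared, each array left out, and values within a run day). In these genes all treated arrays lay below both controls, which is close to what chose them. Leaving out an array, another added constant or a single run day therefore could not turn the direction. The filters, the replicate block and only the groups compared leave a difference of group means unchanged. For both drugs together the difference ranged from -2.55 to -1.66 for S100a8, from -2.46 to -1.76 for S100a9 and from -2.25 to -1.42 for S100a4. For Padi4 it was -1.81 with a constant of 1, -0.86 with the median and -1.77 within the later run day. The dim S100b probe set was at -0.16 after quantile and -0.14 after cyclic loess normalization. ARB minus ACEI of S100a10 turned to 0.12 without ACEI 2 and 0.55 without ARB 2, over a range of -0.99 to 0.55 with each array left out; ARB minus ACEI, tested for S100a8, S100a9, S100a4, S100a10 and the bright S100b probe set, passed in no alternative that gave an adjusted p. S100a10 and Padi4 gave no value under the 60% filter and the values of the dim S100b probe set come from fits with no filter. Of all probe sets, with the median as constant 3 passed for both drugs, 3 for ACEI, 4 for ARB and 4 for ARB minus ACEI; 1 passed for both drugs after quantile normalization and 1 after cyclic loess. With each array left out the counts ran from 0 to 60 for both drugs, 0 to 261 for ACEI, 0 to 46 for ARB and 0 to 305 for ARB minus ACEI; the highest came from fits without a control array, where the remaining control is assumed to vary like the other groups. ARB minus ACEI gave 305 with only the groups compared. The filter was first run on the mean of linear intensities and then set to the mean of log2 values, to match earlier processing of these data; the linear filter and the counts of members below the controls were added after seeing the data, and the linear filter changed no count of calls.

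Same-numbered arrays did not deviate together (correlations of 0.05, -0.02 and -0.00 between groups), although they shared a fluidics protocol. With 2 arrays per group this cannot show whether the replicate numbers paired them. A replicate block gave 3 passing probe sets for both drugs, 2 for ACEI, 4 for ARB and 1 for ARB minus ACEI.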
